A study of Mus musculus with 12 samples.

Results

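The 40 genes described here encode stromal and matrix products of mesenchymal and endothelial cells, followed through RNA-seq libraries of sorted small intestinal dendritic cells (DCs). The genes were chosen by name as a list that marks stromal RNA in the CD103-CD11b+ samples, with earlier results of these data known. They are 40 of 53801 genes in the count tables, and all 40 passed the filter of 5 counts in some sample, which left 20580 genes for the tests. Each symbol matched 1 Ensembl gene.

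DCs were sorted from the small intestine of mice of a mixed background, as CD103+CD11b- and CD103-CD11b+ cells, with 3 samples from 3 mice in each of 4 groups. The controls were labelled wild type (WT). The other mice carried floxed alleles of *Cbfb*, the partner that stabilises RUNX transcription factors on DNA, and a Cre transgene under the CD11c promoter, which in this study's mice also recombined in some T cells (Cbfb-cKO). All samples came from tissue digested with EDTA and collagenase IV, and the study's gate was CD45+CD64-CD11c+MHC-II+, so that CD45-negative stromal cells lie outside it. Each library was made from a small number of sorted cells.

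Stromal cells build and hold the lamina propria. Fibroblasts secrete fibrillar collagens and the proteoglycans that space them, endothelial and mural cells lay down the collagen IV and laminin of basement membranes, and smooth muscle cells contract through actin and its partners. Leukocytes are not known as a main source of fibrillar collagens, whereas vimentin and PECAM1 are also made by leukocytes. In bulk samples, fewer cells of a type and less RNA per cell cannot be told apart.

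The gene counts of a sample summed to between 2161929 and 5863484, and levels are given as CPM, the counts scaled to a common library size with edgeR's TMM factors. In these units 3 counts corresponded to 0.485 to 1.53 CPM. *Cbfb*, the targeted gene, was at 228, 216 and 199 CPM in WT and 221, 215 and 290.2 CPM in Cbfb-cKO CD103+CD11b- DCs, and at 184, 161 and 217 CPM in WT and 179.6, 169.6 and 273 CPM in Cbfb-cKO CD103-CD11b+ DCs. The genotypes overlapped in both subsets, and since counts were summed over the whole gene, undeleted exons included, this level does not check the genotype labels. The sorted populations were checked against their markers. *Ptprc*, which encodes CD45, was at 1158 to 2352 CPM and *Itgax*, which encodes CD11c, at 536 to 1316 CPM in the 12 samples. *Itgae*, which encodes CD103, was at 616 to 899 CPM in CD103+CD11b- samples and at 30.6 to 281 CPM in CD103-CD11b+ samples. *Itgam*, which encodes CD11b, was at 3.66 to 11 CPM and at 77.9 to 222 CPM in the same order.

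The samples of a group were far from alike in these genes. Replicate 3 of the WT CD103+CD11b- DCs was above both other samples of its group for 37 of the 40 genes. Replicate 3 of the Cbfb-cKO CD103-CD11b+ DCs was the lowest of the 6 CD103-CD11b+ samples for 35 of the 40 genes. It lay below the WT CD103+CD11b- replicate 3 for 34 of the 40, 32 of which are among those 35. Counts and medians over the 40 genes are given with and without these libraries. The 3 samples of a group are listed below in the order of their replicate numbers.

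Summed over the 40 genes, the level was 883, 681 and 2355 CPM in WT CD103+CD11b- DCs and 4609.6, 13445 and 8240.2 CPM in WT CD103-CD11b+ DCs. It was 802, 1505 and 1074 CPM in Cbfb-cKO CD103+CD11b- DCs and 4454, 8384 and 1688 CPM in Cbfb-cKO CD103-CD11b+ DCs. The subsets did not overlap in either genotype, but the third Cbfb-cKO CD103-CD11b+ sample, at 1688 CPM, was close to the highest Cbfb-cKO CD103+CD11b- sample, at 1505 CPM. Group means were 1306 ± 914 and 8765 ± 4441 CPM in the WT subsets, and 1127 ± 355 and 4842 ± 3365 CPM in the Cbfb-cKO subsets (SD, n = 3). Without the third sample of the group the WT CD103+CD11b- mean was 782 CPM, and without the second the Cbfb-cKO CD103-CD11b+ mean was 3071 CPM.

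*Vim*, which encodes the intermediate filament vimentin, made up a large part of the sum where the other genes were low. Without it the sum was 455, 334 and 1979 CPM in WT and 423, 1139 and 371 CPM in Cbfb-cKO CD103+CD11b- DCs. In CD103-CD11b+ DCs it was 4172, 12924 and 7579.9 CPM in WT and 4075, 7999.6 and 892 CPM in Cbfb-cKO samples. With *Vim* left out the third Cbfb-cKO CD103-CD11b+ sample lay below the second Cbfb-cKO CD103+CD11b- sample. As a share of all gene counts the sum without *Vim* ran from 0.0343% in the second WT CD103+CD11b- sample to 1.21% in the second WT CD103-CD11b+ sample.

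**Figure D1:**
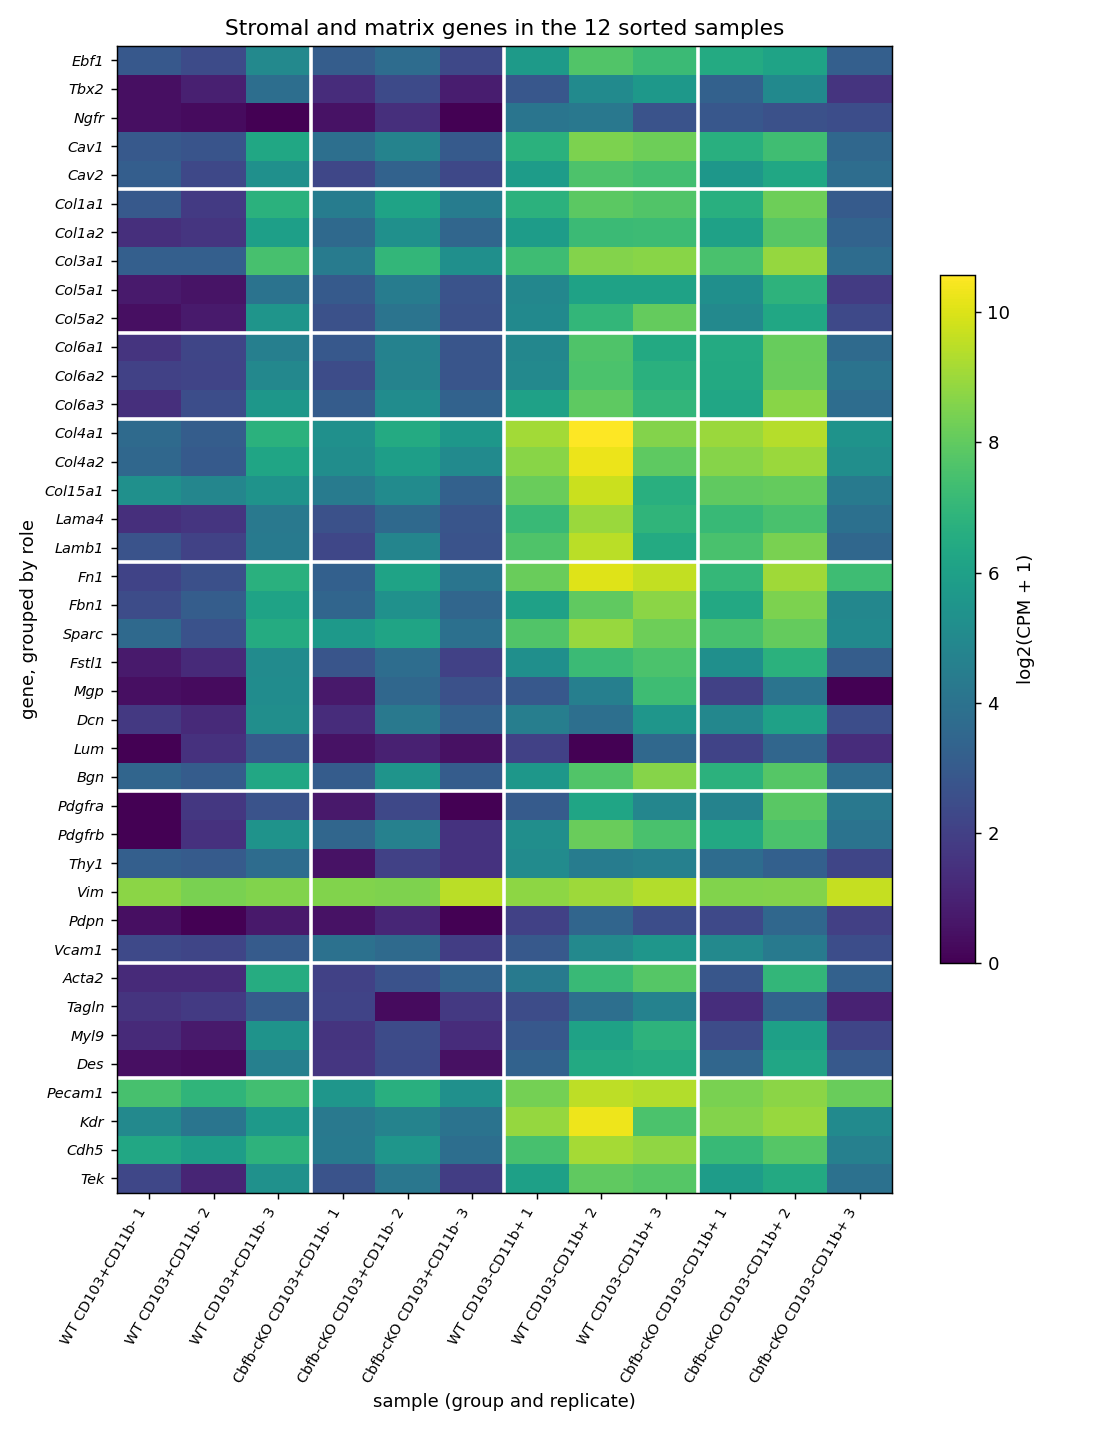
Heat map of the 40 genes (rows, grouped by role) in the 12 samples (columns, by group and replicate), coloured by log2(CPM + 1). Vim is bright in every column, the third WT CD103+CD11b- column is brighter than its 2 neighbours, and the third Cbfb-cKO CD103-CD11b+ column is darker than its 2 neighbours.

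The genes differed widely in level among themselves. Divided by the length of their merged exons, the mean level over the 12 samples was highest for *Vim* at 102 CPM per kb, followed by *Pecam1* at 45.6, *Col4a1* at 44.3 and *Col4a2* at 38.2 CPM per kb. It was lowest for *Lum*, a proteoglycan of collagen fibrils, at 1.34 CPM per kb and for *Ngfr*, the low-affinity neurotrophin receptor, at 1.42 CPM per kb. In 26 of the 40 genes every sample had more than 3 counts. The second WT CD103-CD11b+ sample was the highest of the 12 for 16 genes, the third WT CD103-CD11b+ sample for 12 and the second Cbfb-cKO CD103-CD11b+ sample for 10. The first WT and the third Cbfb-cKO CD103-CD11b+ samples were each the highest for 1. No CD103+CD11b- sample was the highest for any of the 40 genes.

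The first set of genes holds regulators and caveolar proteins. *Ebf1* (ENSMUSG00000057098, chr11:44617317-45008091 on GRCm38) encodes a transcription factor of B cells and of stromal and adipocyte precursors. It was at 6.50, 4.35 and 30.6 CPM in WT and 7.77, 12.2 and 3.91 CPM in Cbfb-cKO CD103+CD11b- DCs, and at 53.6, 205 and 144 CPM in WT and 86.9, 68.8 and 8.16 CPM in Cbfb-cKO CD103-CD11b+ DCs. All 3 WT CD103-CD11b+ samples exceeded the WT CD103+CD11b- samples, and the third Cbfb-cKO CD103-CD11b+ sample lay within the range of the Cbfb-cKO CD103+CD11b- samples.

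Because B cells make *Ebf1*, the 14 B cell markers were read beside it. Their sum was 313, 396 and 239 CPM in WT and 1248, 632 and 641 CPM in Cbfb-cKO CD103-CD11b+ DCs, and 554, 457 and 333 CPM in WT and 368, 374 and 369 CPM in Cbfb-cKO CD103+CD11b- DCs. In the Cbfb-cKO subset comparison 7 of the 14 were called higher in CD103-CD11b+ DCs, where 9.26% of all tested genes were. In WT 1 was called higher, where 11.8% of all tested genes were, and 2 lower. *Pax5*, the B cell identity factor, was at 6.46, 19.3 and 0 CPM in WT and 60.8, 14.0 and 0 CPM in Cbfb-cKO CD103-CD11b+ DCs. Across both genotypes the first Cbfb-cKO sample was the highest for *Pax5*, while *Ebf1* was highest in the second and the third WT sample. Within each genotype *Ebf1*, *Pax5* and the B cell sum peaked in the same CD103-CD11b+ sample, the second in WT and the first in Cbfb-cKO. *Ebf1* was at 86.9, 68.8 and 8.16 CPM in these Cbfb-cKO samples, whereas 35 of the listed genes were highest in the second. The third WT sample had *Pax5* at 0 CPM but *Ebf1* at 144 CPM. The part of B cell RNA in the *Ebf1* levels was not tested.

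*Cav1* and *Cav2* encode the caveolins, which coat caveolae in endothelial, mural and fibroblastic cells and lie next to each other on chromosome 6. *Cav1* (ENSMUSG00000007655, chr6:17306335-17341452) was at 6.84, 5.72 and 78.6 CPM in WT and 13.5, 25.1 and 7.04 CPM in Cbfb-cKO CD103+CD11b- DCs, against 106, 355 and 302 CPM and 101, 159 and 10.7 CPM in CD103-CD11b+ DCs. *Cav2* was at 7.86, 3.89 and 38.6 CPM in WT and 3.77, 9.03 and 3.91 CPM in Cbfb-cKO CD103+CD11b- DCs, and at 56.2, 198 and 163 CPM and 47.6, 76.9 and 12.7 CPM in CD103-CD11b+ DCs. In both genes the third WT CD103+CD11b- sample was high for its group and the third Cbfb-cKO CD103-CD11b+ sample low for its group. Both genes overlap the predicted gene Gm15581, whose reads the counting without strand could not tell apart.

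*Tbx2*, a T-box transcription factor of mesenchyme, was at 0.342, 0.915 and 12.9 CPM in WT and 1.55, 4.15 and 0.782 CPM in Cbfb-cKO CD103+CD11b- DCs, and at 6.26, 32.3 and 48.3 CPM and 8.76, 31.6 and 2.04 CPM in CD103-CD11b+ DCs. The subsets overlapped in both genotypes. *Ngfr*, which marks glial and some stromal cells, was at 0.342, 0.229 and 0 CPM in WT CD103+CD11b- and 16.2, 18 and 5.53 CPM in WT CD103-CD11b+ DCs. The Cbfb-cKO samples had 0.444, 1.71 and 0 CPM and 6.29, 5.23 and 4.59 CPM in the same order. Only 2 counts in all lay behind the WT CD103+CD11b- value of *Ngfr*, so the ratio of pooled normalised counts, 91.1, has a 95% exact interval from 24.8 to 758, which covers counting error only. In Cbfb-cKO samples, with 59 counts against 9, the ratio was 6.89, with an interval from 3.39 to 15.8. Both subsets stayed apart in both genotypes for *Ngfr*.

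The promoters of the list were searched for the core RUNX motif TGTGGT (or ACCACA on the other strand), since *Cbfb* acts through RUNX proteins, in the 250 bases before each RefSeq start site on GRCm38.p6. Windows were found for 26 of the 40 genes. The motif stood in 1 of these 26 genes, *Ebf1*, against 15.9% of all 27025 genes with a window. The smooth muscle gene *Myl9* was the only one of the 26 with a CArG box, the site of serum response factor, which 1.62% of all genes had. The stretches with these matches are printed 5′ to 3′ from RefSeq's sequence with the motif in capitals, because they hold the only matches among the listed genes. GENCODE starts *Ebf1* further upstream, so that its window lies in an annotated exon and only the last 30 bases are shown, while the last bases of the window of *Myl9* lie in the annotated gene and were left off:
Ebf1 (chr11:44618070-44618099, + strand): aaaaaaaaaaaaaaaatcTGTGGTtggcgt
Myl9 (chr2:156775214-156775419, + strand): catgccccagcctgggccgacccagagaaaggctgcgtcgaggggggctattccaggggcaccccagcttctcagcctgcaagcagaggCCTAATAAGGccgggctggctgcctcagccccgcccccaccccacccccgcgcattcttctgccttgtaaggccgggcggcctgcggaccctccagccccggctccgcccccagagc
The RUNX match of *Ebf1* begins 12 bases before the RefSeq start site and the CArG box of *Myl9* begins 161 bases before it. A match is a string of letters and was not tested as a binding site.

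The 5 fibrillar collagen genes encode chains of collagens I, III and V, the fibres of loose connective tissue. *Col3a1* (ENSMUSG00000026043) had the highest mean level of them. It was at 8.21, 8.24 and 177 CPM in WT and 20.2, 127 and 37.5 CPM in Cbfb-cKO CD103+CD11b- DCs. In CD103-CD11b+ DCs it was at 156, 392 and 414 CPM in WT and 184, 474 and 12.2 CPM in Cbfb-cKO samples. The third WT CD103+CD11b- sample thus exceeded the first WT CD103-CD11b+ sample, and the third Cbfb-cKO CD103-CD11b+ sample lay below all 3 Cbfb-cKO CD103+CD11b- samples.

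*Col5a2*, a chain of the collagen V that nucleates fibrils, was at 0.342, 0.686 and 44.3 CPM in WT and 5.10, 15.6 and 5.08 CPM in Cbfb-cKO CD103+CD11b- DCs. It was at 31.3, 128 and 269.6 CPM and 30.8, 77.3 and 4.08 CPM in CD103-CD11b+ DCs. *Col1a1* and *Col1a2* encode both chains of collagen I, and *Col5a1* another chain of collagen V. The highest level in WT CD103-CD11b+ DCs was 237 CPM for *Col1a1*, 149 CPM for *Col1a2* and 67.5 CPM for *Col5a1*. The second Cbfb-cKO CD103-CD11b+ sample was higher for all 3, at 301, 222 and 112 CPM, and the third was at 7.14, 9.18 and 2.55 CPM.

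Collagen VI forms beaded microfibrils around cells, and its 3 genes were the set that showed no lower mean in the Cbfb-cKO CD103-CD11b+ samples. *Col6a3* was at 1.71, 4.58 and 46.7 CPM in WT and 7.54, 34.4 and 8.99 CPM in Cbfb-cKO CD103+CD11b- DCs, and at 64.6, 247 and 124 CPM and 75.4, 408 and 12.7 CPM in CD103-CD11b+ DCs. *Col6a2* was at 30.5, 191 and 104 CPM in WT and 84.4, 286 and 15.3 CPM in Cbfb-cKO CD103-CD11b+ DCs, against 3.08, 3.43 and 29.7 and 4.44, 25.6 and 5.87 CPM in CD103+CD11b- DCs. *Col6a1* ranged from 28.8 to 201 CPM in WT and from 11.7 to 272 CPM in Cbfb-cKO CD103-CD11b+ samples. In all 3 genes the second sample of each CD103-CD11b+ group was the highest.

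The basement membrane set holds both common chains of collagen IV, the linked collagen XV, and the laminin chains alpha 4 and beta 1. *Col4a1* (ENSMUSG00000031502) was at 11.6, 7.78 and 106 CPM in WT and 38.4, 87.4 and 47.7 CPM in Cbfb-cKO CD103+CD11b- DCs. It was at 547, 1515 and 391 CPM in WT and 507, 671 and 41.8 CPM in Cbfb-cKO CD103-CD11b+ DCs. The WT subsets were far apart. The third Cbfb-cKO CD103-CD11b+ sample lay between the first and the third Cbfb-cKO CD103+CD11b- samples.

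*Col4a2*, which is transcribed from the opposite strand of the same promoter region as *Col4a1*, kept close to it in level. The ratio of *Col4a2* to *Col4a1* CPM lay between 0.634 and 0.919 in all 12 samples, while *Col4a1* itself spanned 7.78 to 1515 CPM. Reads where the 2 genes overlap could not be assigned by strand, since the counting ignored it.

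*Lama4*, the laminin alpha chain of vessels and smooth muscle, was at 1.71, 2.06 and 18.1 CPM in WT and 5.10, 11.2 and 5.87 CPM in Cbfb-cKO CD103+CD11b- DCs, and at 143, 509 and 119 CPM and 139, 182 and 13.8 CPM in CD103-CD11b+ DCs. *Lamb1*, a laminin beta chain, was at 5.47, 3.20 and 19.1 CPM and 3.77, 27.3 and 5.48 CPM in CD103+CD11b- DCs, and at 201, 710.0 and 86.4 CPM and 186, 348 and 10.7 CPM in CD103-CD11b+ DCs. *Col15a1* was at 38.6, 27.7 and 42.4 CPM and 20.0, 32.9 and 8.60 CPM in CD103+CD11b- DCs, and at 287, 836 and 99.8 CPM and 253, 269 and 18.9 CPM in CD103-CD11b+ DCs. Unlike the collagen I, III and V genes, *Col15a1* was of similar level in all 3 WT CD103+CD11b- samples. For *Col15a1* and both laminins, as for collagen IV, the second WT CD103-CD11b+ sample was the highest of the 12.

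Among the 8 matrix glycoproteins and proteoglycans, *Fn1*, which encodes fibronectin, had the highest mean CPM. *Fn1* was at 3.42, 5.03 and 102 CPM in WT and 8.43, 68.1 and 16.4 CPM in Cbfb-cKO CD103+CD11b- DCs, and at 284, 1056 and 772 CPM and 129, 537 and 156 CPM in CD103-CD11b+ DCs. *Fn1* and *Lum* were the 2 genes of the set whose Cbfb-cKO subsets did not overlap, beside 18.4% of all genes with CD103-CD11b+ samples higher. For *Lum* this rests on few counts. The third Cbfb-cKO CD103-CD11b+ sample had 3 counts, against 2, 4 and 1 in the Cbfb-cKO CD103+CD11b- samples. Fibronectin is also made by macrophages, which the CD64- gate is meant to leave out. Of 12 macrophage markers 8 in WT and 7 in Cbfb-cKO were called higher in CD103-CD11b+ DCs, and the part of such cells in the *Fn1* level was not tested.

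*Mgp*, the matrix Gla protein of vascular smooth muscle and fibroblasts, was at 0.342, 0.229 and 34.6 CPM in WT and 0.666, 10.5 and 5.08 CPM in Cbfb-cKO CD103+CD11b- DCs. It was at 6.46, 22.7 and 156 CPM and 3.14, 15.9 and 0 CPM in CD103-CD11b+ DCs, so that the third sample was the highest in WT and held no count in Cbfb-cKO. *Fbn1*, *Bgn*, *Sparc* and *Fstl1*, which encode fibrillin, biglycan, osteonectin and a follistatin-like secreted protein, reached 428, 405, 495 and 191 CPM in WT CD103-CD11b+ DCs. Their highest WT CD103+CD11b- value, in each case the third sample, was 68.2, 80.7, 89.9 and 33.1 CPM. *Dcn* and *Lum*, the decorin and lumican of collagen fibres, stayed low, with at most 64.5 and 10.8 CPM in any sample, and both overlapped between the WT subsets.

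The mesenchymal surface and cytoskeleton set was mixed. *Pdgfra*, the PDGF receptor of fibroblasts, was at 0, 2.29 and 5.5 CPM in WT and 0.666, 3.91 and 0 CPM in Cbfb-cKO CD103+CD11b- DCs, and at 7.24, 73.3 and 27.9 CPM and 25.1, 232 and 17.8 CPM in CD103-CD11b+ DCs. All 3 CD103-CD11b+ samples of each genotype exceeded the CD103+CD11b- samples of that genotype. *Pdgfrb*, the PDGF receptor of pericytes, ranged from 35.8 to 285 CPM in WT and from 15.3 to 191 CPM in Cbfb-cKO CD103-CD11b+ samples, and reached 42.2 CPM in WT CD103+CD11b- samples.

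*Pdpn*, the podoplanin of lymphatic and reticular cells, was at 0.342, 0 and 0.647 CPM in WT and 0.444, 1.22 and 0 CPM in Cbfb-cKO CD103+CD11b- DCs, against 3.13, 9.99 and 4.65 CPM and 4.04, 10.5 and 3.06 CPM in CD103-CD11b+ DCs. Its pooled normalised counts differed 14.5-fold between the WT subsets (95% exact interval 5.88 to 46.1, 62 counts against 5) and 10.2-fold between the Cbfb-cKO subsets (4.70 to 26.4, 68 counts against 7). Both intervals cover counting error only and not the spread between samples. *Vcam1*, an adhesion receptor for leukocytes, ranged from 2.74 to 14.2 CPM in CD103+CD11b- and from 4.59 to 45.4 CPM in CD103-CD11b+ samples of both genotypes.

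*Vim* was at 427, 348 and 375 CPM in WT and 379, 367 and 703 CPM in Cbfb-cKO CD103+CD11b- DCs, and at 437, 521 and 660.3 CPM and 379, 384 and 796 CPM in CD103-CD11b+ DCs. Its highest sample was the third Cbfb-cKO CD103-CD11b+ sample, in which most other listed genes were low.

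*Thy1*, a surface protein of fibroblasts, neurons and T cells, was at 8.21, 7.09 and 12.3 CPM in WT and 0.444, 3.17 and 1.96 CPM in Cbfb-cKO CD103+CD11b- DCs. It was at 33.7, 20.7 and 23.6 CPM and 12.3, 8.33 and 3.57 CPM in CD103-CD11b+ DCs. In both subsets the genotypes did not overlap, with the Cbfb-cKO samples lower. The 8 markers of T cells and innate lymphoid cells summed to 206, 181 and 102 CPM in WT and 39.1, 71.3 and 39.5 CPM in Cbfb-cKO CD103+CD11b- DCs, and to 70.5, 182 and 56.7 CPM and 145, 81.6 and 43.3 CPM in CD103-CD11b+ DCs. Their part in the *Thy1* level was not tested.

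*Acta2*, the smooth muscle actin, was at 1.37, 1.37 and 92.8 CPM in WT and 3.11, 5.37 and 9.39 CPM in Cbfb-cKO CD103+CD11b- DCs. It was at 19.6, 140.3 and 218 CPM and 6.06, 128 and 8.67 CPM in CD103-CD11b+ DCs. *Tagln*, which encodes transgelin, was at 2.05, 2.52 and 7.28 CPM and 3.33, 0.244 and 2.35 CPM in CD103+CD11b- DCs, and at 4.50, 13.7 and 24.7 CPM and 1.57, 9.04 and 1.02 CPM in CD103-CD11b+ DCs. *Myl9*, a regulatory myosin light chain, and *Des*, the muscle filament desmin, reached 41.6 and 23.0 CPM in the third WT CD103+CD11b- sample, and 113 and 93.1 CPM in the third WT CD103-CD11b+ sample. In the first Cbfb-cKO CD103-CD11b+ sample, where *Col4a1* stood at 507 CPM, *Acta2* was only at 6.06 CPM.

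The 4 endothelial genes encode the adhesion molecule PECAM1, the VEGF receptor KDR, VE-cadherin (*Cdh5*) and the angiopoietin receptor TEK. *Pecam1* (ENSMUSG00000020717) was at 177, 121 and 166 CPM in WT and 45.9, 100.1 and 38.7 CPM in Cbfb-cKO CD103+CD11b- DCs, and at 329.6, 727 and 650.4 CPM and 342, 429 and 282 CPM in CD103-CD11b+ DCs. *Pecam1* was the endothelial gene that stayed high in the third Cbfb-cKO CD103-CD11b+ sample. *Kdr* was at 30.4, 16.0 and 51.3 CPM and 18.4, 25.4 and 15.3 CPM in CD103+CD11b- DCs, and at 475, 1253 and 188 CPM and 389, 492 and 32.6 CPM in CD103-CD11b+ DCs. *Cdh5* was at 79.0, 57.4 and 113 CPM and 18.6, 46.1 and 13.3 CPM in CD103+CD11b- DCs, and at 178, 567 and 452 CPM and 139.6, 221 and 22.9 CPM in CD103-CD11b+ DCs. *Tek* ranged from 63.6 to 251 CPM in WT and from 14.3 to 85.2 CPM in Cbfb-cKO CD103-CD11b+ samples.

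**Figure D2:**
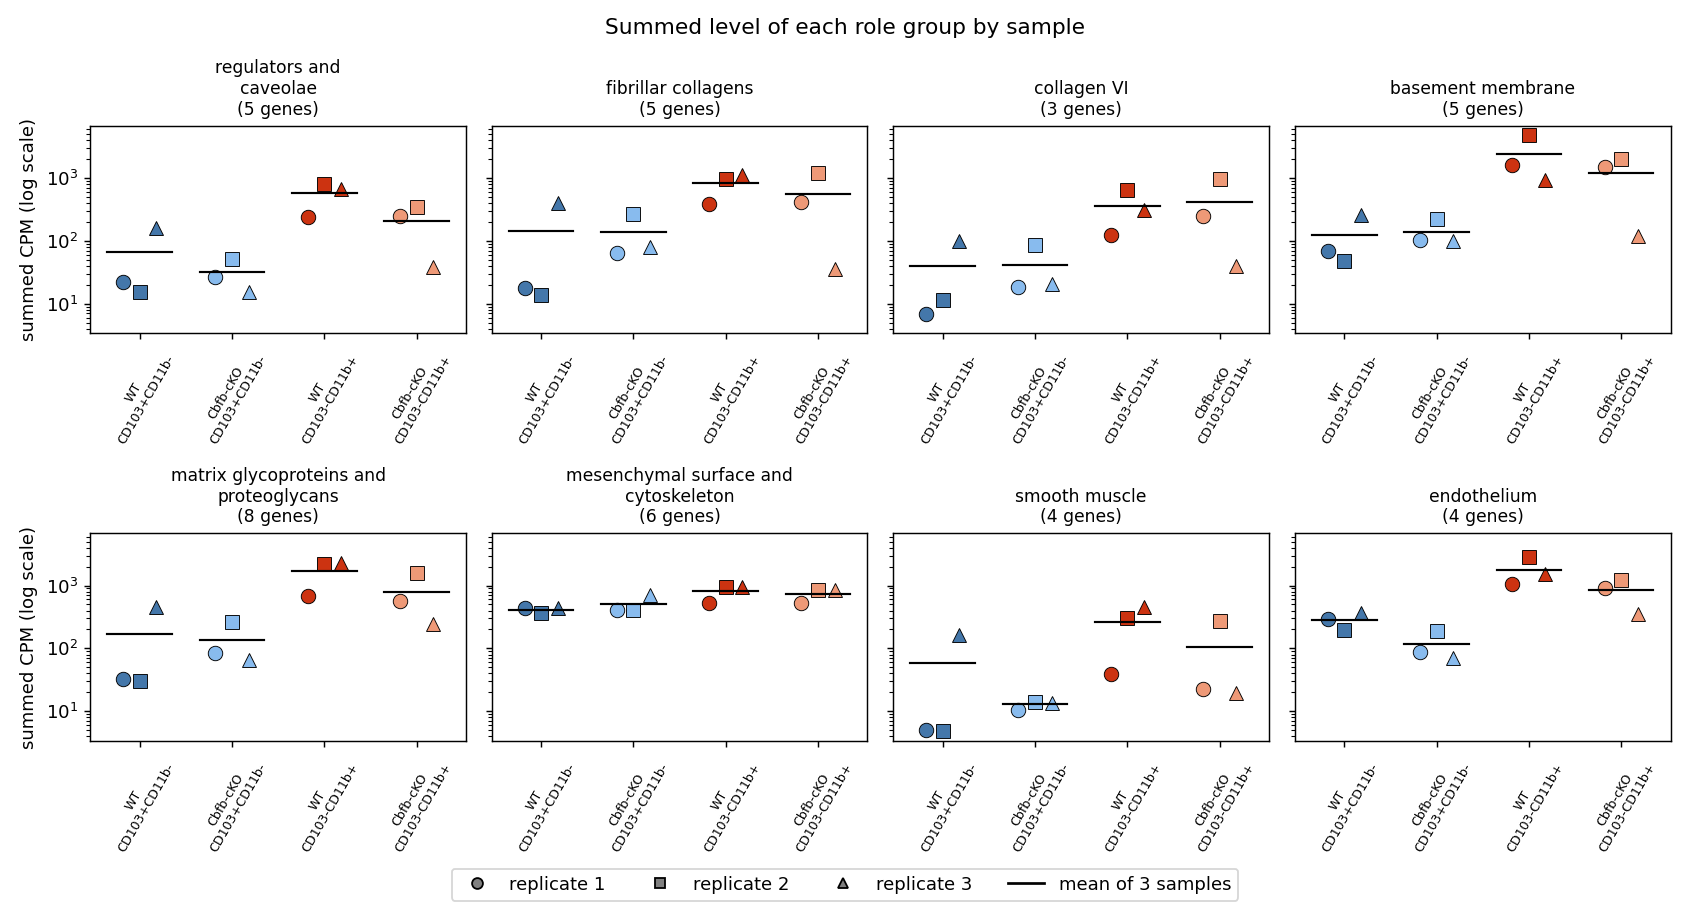
Summed CPM (log scale) of each of the 8 sets of genes in the 12 samples, with 1 point per sample, the shape giving the replicate number and the bar the mean of 3 samples. The third WT CD103+CD11b- sample stands above its group in the collagen and smooth muscle panels (406 CPM against 18 and 14 CPM of fibrillar collagen), and the third Cbfb-cKO CD103-CD11b+ sample stands below its group in 7 of the 8 panels.

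The mix of genes differed between samples as well as their amount. The smooth muscle sum divided by the basement membrane sum was 0.0754, 0.101 and 0.635 in WT CD103+CD11b- and 0.0250, 0.0637 and 0.476 in WT CD103-CD11b+ DCs. In Cbfb-cKO samples it was 0.104, 0.0647 and 0.137 and 0.0151, 0.139 and 0.164 in the same order. In both WT subsets the third sample had the highest ratio, at 0.635 and 0.476, against at most 0.101 in the other 4 WT samples. A ratio of genes outside the list gave another order in WT CD103+CD11b- DCs. The sum of 15 other smooth muscle and pericyte genes divided by that of the other endothelial genes was 0.754, 1.24 and 0.580 in WT CD103+CD11b-, where the third sample was the lowest, and 0.192, 0.250 and 0.406 in WT CD103-CD11b+ DCs. It was 0.399, 0.391 and 0.403 and 0.205, 0.382 and 0.518 in the Cbfb-cKO subsets. In WT CD103+CD11b- DCs the third sample was nevertheless the highest in both sums. The other smooth muscle and pericyte genes summed to 169, 167 and 568 CPM there, and the other endothelial genes to 224, 134 and 980 CPM. *Kdr* divided by *Pecam1* was 0.172, 0.132 and 0.308 in the WT CD103+CD11b- samples and 1.44, 1.72 and 0.289 in the WT CD103-CD11b+ samples. It was 0.401, 0.254 and 0.394 in Cbfb-cKO CD103+CD11b- and 1.14, 1.15 and 0.116 in Cbfb-cKO CD103-CD11b+ samples, so that the third CD103-CD11b+ sample of each genotype held far more *Pecam1* than *Kdr*. These ratios are descriptions, with no test.

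**Figure D3:**
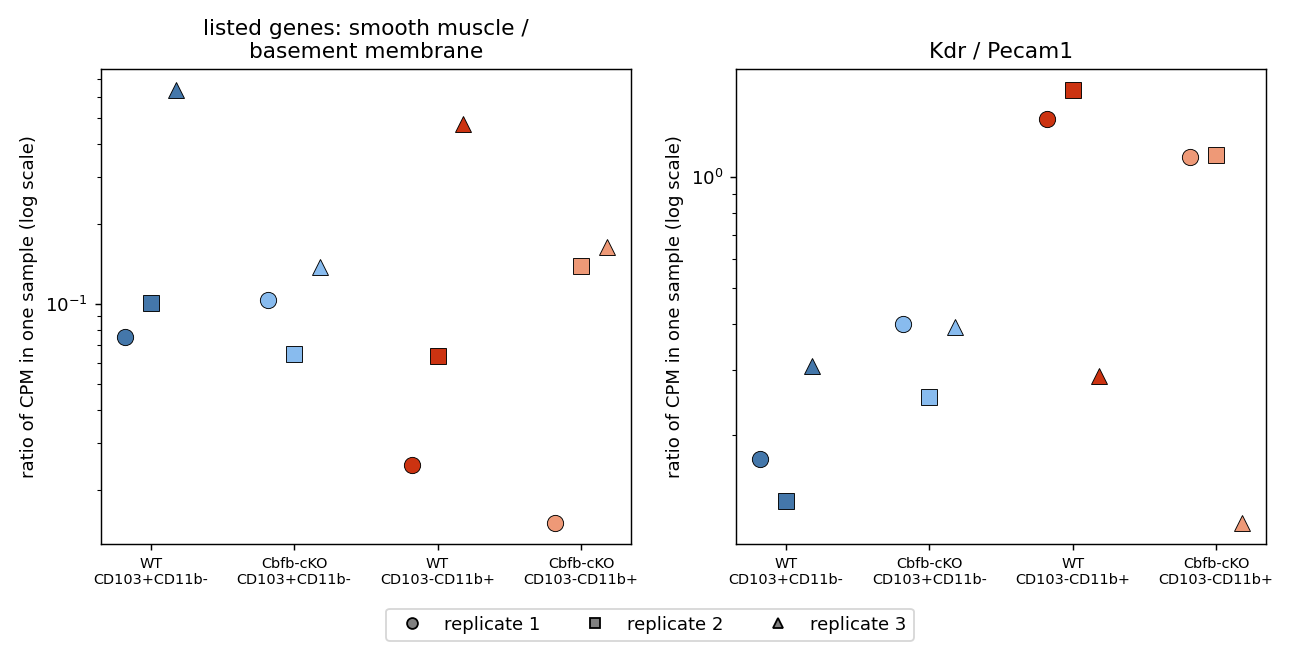
Ratios of CPM within each sample (log scale), by group, with the point shape giving the replicate number. The left panel divides the sum of 4 smooth muscle genes by the sum of 5 basement membrane genes and shows the third WT sample of each subset highest (0.635 and 0.476), and the right panel divides Kdr by Pecam1 and shows 4 CD103-CD11b+ samples above 1 and replicate 3 of both CD103-CD11b+ groups below it.

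The subset comparison asks how far the CD103-CD11b+ samples exceed the CD103+CD11b- samples. The list was chosen for the CD103-CD11b+ samples, so the calls are given as a description. In WT, all 40 genes had a log2 fold change above 0, with a median of 3.05, while the median over all tested genes was 0.07. By edgeR's quasi-likelihood test, 15 of the 40 were called higher (FDR below 0.05, change of more than 1.3-fold), beside 11.8% of all tested genes called higher. For 25 of the 40, all 3 CD103-CD11b+ samples exceeded all 3 CD103+CD11b- samples, as they did for 21.4% of all genes.

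The called genes were all 5 of the basement membrane, all 4 of the endothelium, *Ebf1*, *Ngfr* and *Cav2*, *Fn1* and *Sparc*, and *Pdpn*. No gene of the fibrillar collagen, collagen VI or smooth muscle sets was called in this fit. With a block for same-numbered samples of each genotype, which the WT samples did not clearly bear out as pairs, 34 of the 40 were called, beside 16.1% of all tested genes called higher. Among the 34 were 4 of the 5 fibrillar collagens, the 3 collagen VI genes and 2 of the 4 smooth muscle genes. The log2 fold change was 5.09 (SE 1.28) for *Lamb1*, 5.01 (SE 1.07) for *Lama4* and 4.28 (SE 0.94) for *Kdr*. That of *Pecam1* was smaller but had the smallest error of the 15, at 1.88 (SE 0.37). *Col3a1* and *Acta2*, which were not called, differed by 2.28 (SE 1.28) and 1.94 (SE 1.46) on the log2 scale. Single libraries set how many genes were called. Without the third WT CD103+CD11b- sample 31 of the 40 were called, beside 11% of all genes called higher, and the median was 5.29. Without the first 3 were called and without the second 2, beside 4.22% and 3.31% of all genes. Without the second or the third WT CD103-CD11b+ sample 4 and 9 were called, beside 5.87% and 7.88%.

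In Cbfb-cKO samples all 40 genes again had a log2 fold change above 0, with a median of 2.77 against 0.11 over all tested genes. By the same test 9 of the 40 were called higher, beside 9.26% of all genes, and for 11 the subsets did not overlap, beside 18.4% of all genes. The 9 were *Pecam1*, *Kdr*, *Pdgfra*, *Lama4*, *Thy1*, *Pdpn*, *Ngfr*, *Cav2* and *Col15a1*. The log2 fold change was 5.78 (SE 1.44) for *Pdgfra*, 3.95 (SE 0.94) for *Kdr* and 2.5 (SE 0.39) for *Pecam1*. Same-numbered Cbfb-cKO samples of both subsets deviated together, as did WT CD103-CD11b+ and Cbfb-cKO CD103+CD11b- samples, which cannot share a mouse. A block for same-numbered samples of each genotype gave 22 called genes of the 40, beside 12.9% of all genes. With 1 block shared by both genotypes 14 were called, beside 12% of all genes.

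Without the third Cbfb-cKO CD103-CD11b+ sample, 17 of the 40 were called in Cbfb-cKO, beside 10.7% of all genes called higher, and the median was 3.25. Without the first and the second of that group 4 and 2 were called, beside 6.53% and 6.27% of all genes. Without the first or the third Cbfb-cKO CD103+CD11b- sample 1 was called, beside 5.58% and 6.08%. Of the listed genes whose levels are printed for every sample, *Mgp*, *Tagln* and *Vim* fell below 0 when single samples were left out. Their lowest log2 fold changes were -1.45, -0.53 and -0.34. The genotypes share no sample in these 2 comparisons, but the difference between them is the comparison given last.

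**Figure D4:**
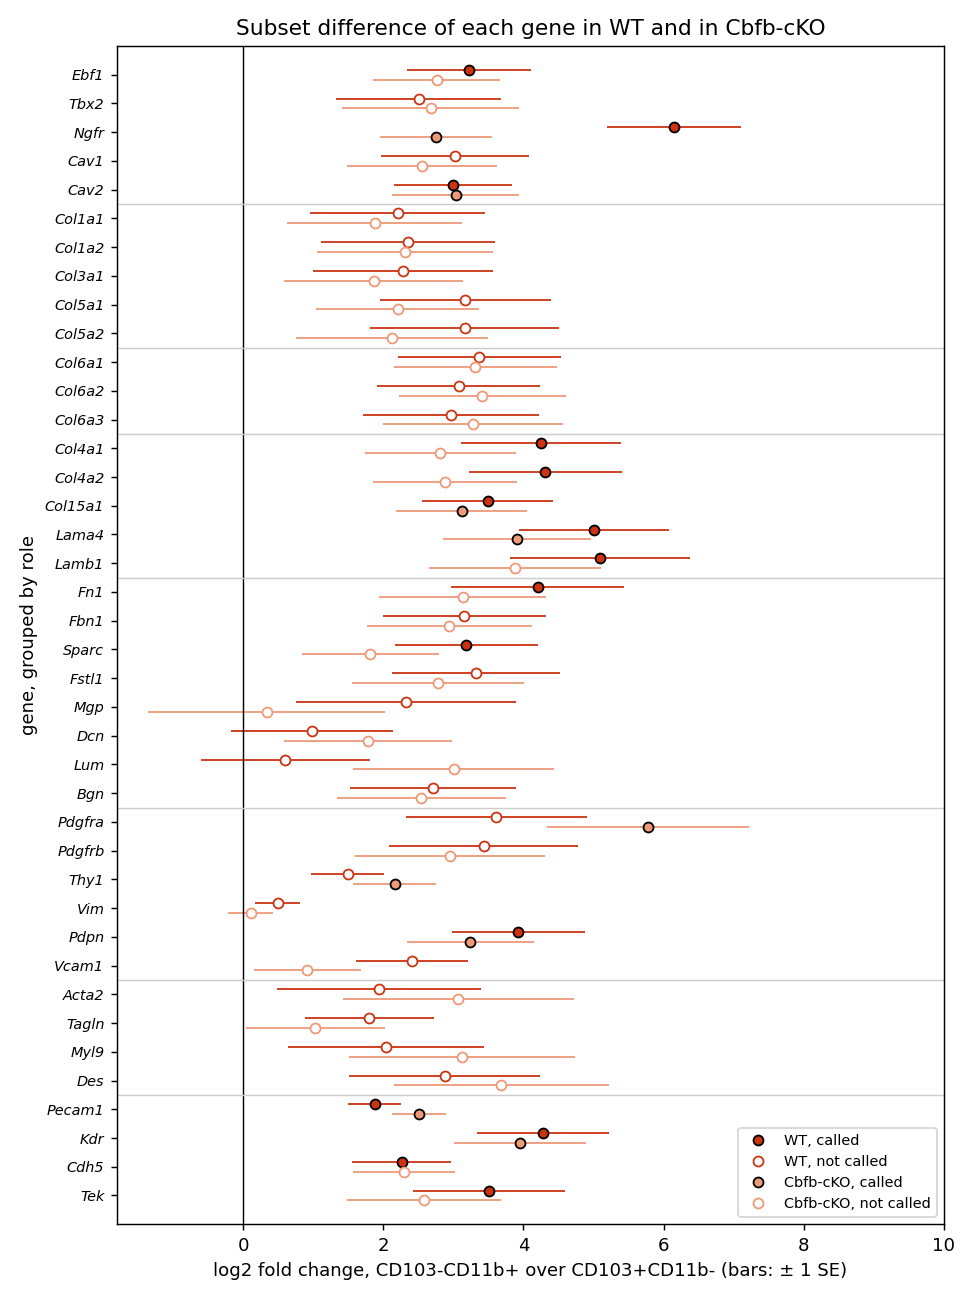
Log2 fold change of CD103-CD11b+ over CD103+CD11b- DCs for each of the 40 genes in WT (dark red) and Cbfb-cKO (light red), with bars of 1 SE and filled points for called genes. All 80 points lie above 0, 15 are filled in WT and 9 in Cbfb-cKO, and the smooth muscle and fibrillar collagen genes have wide bars and open points.

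Of the other stromal genes, a separate list of 90, 84 were tested. In WT 31 of the 84 were called higher in CD103-CD11b+ DCs and none lower, beside 11.8% of all tested genes called higher, with a median log2 fold change of 3.24. By set, 13 of 21 endothelial, 6 of 16 matrix, 5 of 19 fibroblast, 3 of 14 smooth muscle and pericyte, 3 of 8 enteric glial and neuronal, and 1 of 6 follicular stromal genes were called. In Cbfb-cKO 7 of the 84 were called higher and none lower, with a median of 2.22. That share was below the 9.26% of all tested genes called higher. They were 3 endothelial, 2 smooth muscle and pericyte genes, 1 glial or neuronal and 1 follicular stromal gene.

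*Hspg2*, the basement membrane proteoglycan perlecan, was at 27.7, 9.38 and 141 CPM in WT CD103+CD11b- and 956, 2558 and 523 CPM in WT CD103-CD11b+ DCs (edgeR adjusted p = 0.0246). *Plvap*, the diaphragm protein of fenestrated endothelium, was at 19.8, 13.5 and 58.7 CPM and 272, 621 and 306 CPM in WT, with a log2 fold change of 3.67 (SE 0.78). In Cbfb-cKO its log2 fold change was 2.58 (SE 0.75). Both genes were highest in the second WT CD103-CD11b+ sample, as were the listed basement membrane genes. *Robo4*, an endothelial guidance receptor, differed by 4.76 (SE 1.08) in WT and 3.54 (SE 1.06) in Cbfb-cKO. *Rgs5*, a pericyte regulator of G protein signalling, and *Smtn*, the smooth muscle protein smoothelin, were higher by 4.54 (SE 1.15) and 2.55 (SE 0.66) in WT on the log2 scale, and *Smtn* by 2.68 (SE 0.71) in Cbfb-cKO.

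Further called genes in WT were *Esam*, an endothelial adhesion molecule, with a log2 fold change of 2.66 (SE 0.58), *Mcam*, an adhesion molecule of mural and endothelial cells, with 4.08 (SE 1.08), and *Lamc1*, a laminin gamma chain, with 2.94 (SE 0.75). The fibroblast genes *Postn*, which encodes periostin, and *Pcolce*, a procollagen C-proteinase enhancer, differed by 5.29 (SE 1.15) and 2.12 (SE 0.58). *Ltbr*, the lymphotoxin beta receptor, was called with a log2 fold change of only 0.38 (SE 0.12). Some called genes rest on few counts and are given by level. *Col16a1*, a fibril-associated collagen, was at 0, 0.229 and 0.808 CPM and 17.2, 47.0 and 13.1 CPM in the WT subsets, and the glial factor *Sox10* at 0, 0.458 and 0 CPM and 8.61, 19.7 and 2.91 CPM. *Uchl1*, a neuronal ubiquitin hydrolase, was at 0.684, 0 and 1.78 CPM and 7.63, 43.6 and 14.8 CPM in WT, and at 0.444, 0.244 and 0.391 CPM and 10.3, 14.0 and 0 CPM in Cbfb-cKO.

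In Cbfb-cKO the other called genes were *Flt1*, a VEGF receptor, with a log2 fold change of 2.69 (SE 0.83), *Mfge8*, a bridging protein for dying cells, with 2.17 (SE 0.57), and the pericyte channel *Kcnj8*, which had no count in the CD103+CD11b- samples and was at 2.02, 11.9 and 2.04 CPM in the CD103-CD11b+ samples.

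Markers of other cell types were counted beside the listed genes, with 11.8% of all tested genes called higher in CD103-CD11b+ DCs in WT and 9.26% in Cbfb-cKO. Of 12 macrophage markers, 8 were called higher in CD103-CD11b+ DCs in WT and 7 in Cbfb-cKO, and their sum was 250 to 363 CPM in WT CD103+CD11b-, 691 to 1107 CPM in WT CD103-CD11b+, 163 to 259 CPM in Cbfb-cKO CD103+CD11b- and 776 to 1054 CPM in Cbfb-cKO CD103-CD11b+ samples. The third Cbfb-cKO CD103-CD11b+ sample, low in stromal genes, had a macrophage sum of 967 CPM. Of 12 tested epithelial markers, 5 were called higher in WT CD103-CD11b+ DCs and 3 in Cbfb-cKO, with sums of 71.1, 73.7 and 71.3 CPM and 255, 276 and 258 CPM in the WT subsets and of 32.4, 96.2 and 33.2 CPM and 102, 116 and 211 CPM in the Cbfb-cKO subsets. In Cbfb-cKO 5 of the 12 epithelial markers had a log2 fold change below 0, and the median was 0.30. The 7 pan-DC markers summed to 3623 to 5575 CPM in 11 samples and to 7400.3 CPM in the third Cbfb-cKO CD103-CD11b+ sample. The part of these cells in the levels of the listed genes was not tested.

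The genotype comparison in CD103+CD11b- DCs does not use the CD103-CD11b+ samples. The list was nevertheless chosen with results of all 12 samples known, so that its counts and medians are a description here too. None of the 40 was called by edgeR's quasi-likelihood test, beside 1.02% of all tested genes called in either direction. At an unadjusted p under 0.05, 3 of the 40 were lower in Cbfb-cKO, beside 6.64% of all tested genes, and none was higher. DESeq2 called 2, beside 3.17% of all genes. The 3 were *Thy1*, *Pecam1* and *Cdh5*, which were also the 3 genes whose Cbfb-cKO samples all lay below the WT samples, beside 10.6% of all genes. Their log2 fold changes were -2.32 (SE 0.59), -1.32 (SE 0.38) and -1.66 (SE 0.72), with edgeR adjusted p of 0.111, 0.157 and 0.440. Over the alternatives the adjusted p ran from 0.00653 to 0.278 for *Thy1*, from 0.0234 to 0.454 for *Pecam1* and from 0.139 to 0.757 for *Cdh5*, and all 3 stayed below 0 in each. A difference in these genes between the genotypes was therefore not shown at the chosen threshold.

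Over the 40 genes, the log2 fold changes of this comparison had a median of -0.62, against -0.02 over all tested genes, and 30 of the 40 were below 0. One library set this direction. Without the third WT CD103+CD11b- sample 32 of the 40 were above 0, the median was 1.87, and again none was called. With that sample, the WT mean without *Vim* was 923 ± 917 CPM (SD, n = 3), against 644 ± 429 CPM in Cbfb-cKO samples. The other 2 WT samples, at 455 and 334 CPM, lay below the Cbfb-cKO mean, which the second Cbfb-cKO sample raised. The Cbfb-cKO samples were at 423, 1139 and 371 CPM, so those 2 WT samples overlapped them. Without the second Cbfb-cKO CD103+CD11b- sample 34 of the 40 log2 fold changes were below 0. Markers of other cells were read beside these values. The 7 cDC2 markers summed to 629.5, 462 and 370.1 CPM in WT and 127, 138 and 84.9 CPM in Cbfb-cKO, with a median log2 fold change of -1.78, and 3 of the 7 were called lower, where 1.02% of all genes were called in either direction. The T cell and innate lymphoid cell markers given above summed to 163 ± 54.4 CPM in WT and 49.9 ± 18.5 CPM in Cbfb-cKO (SD, n = 3), and none of the 8 was called. Their part in the levels of the listed genes was not tested.

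Between Cbfb-cKO and WT CD103-CD11b+ DCs, a comparison that, like those of the subsets, is a description for the listed genes, none of the 40 was called, beside 1.61% of all tested genes called in either direction. The median log2 fold change was -0.99, against -0.06 over all genes, 33 of the 40 were below 0, and 2 were lower at an unadjusted p under 0.05, beside 9.15% of all genes. DESeq2 called 1, beside 5.52% of all genes. Of 12 tested epithelial markers 11 were below 0 (median -1.48), 5 were lower at an unadjusted p under 0.05 and none was called. Of 14 B cell markers 13 were above 0 (median 1.55) and 2 were called higher, beside 228 of all 20580 genes. The median was -0.13 for macrophage, 0.21 for T cell and innate lymphoid cell and -0.15 for cDC2 markers. The part of these cells in the levels of the listed genes was not tested. The log2 fold change was -1.48 (SE 1.0) for *Cav1*, -1.27 (SE 0.82) for *Ebf1*, -1.0 (SE 1.0) for *Col4a1* and -1.06 (SE 0.82) for *Kdr*. Those of *Mgp* and *Thy1* were -3.17 (SE 1.66) and -1.65 (SE 0.52), and that of *Cdh5* was -1.63 (SE 0.69). *Thy1* and *Cdh5* were the 2 with an unadjusted p under 0.05. The 3 collagen VI genes lay above 0, with 0.20 (SE 1.15) for *Col6a3*, as did *Pdgfra* with 1.37 (SE 1.10). With single samples left out, the values nearest 0 were -0.97 for *Cav1*, -0.78 for *Ebf1*, -0.20 for *Col4a1*, -0.11 for *Kdr* and -1.09 for *Mgp*. Of the listed genes printed for every sample, *Col3a1*, *Lamb1*, *Col6a2*, *Col6a3*, *Pdgfra*, *Pdpn* and *Vim* then had values on both sides of 0. Without the third Cbfb-cKO sample of this subset the median was -0.52 and 29 of the 40 were below 0. Without the second it was -1.67, 39 were below 0 and 7 had an unadjusted p under 0.05. Of all genes 17.1% had such a p in either direction, and 10.1% had it and were lower.

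Among the 84 other stromal genes tested, 78 were below 0 in this comparison, with a median of -1.31, beside 11307 of all 20580 tested genes below 0. Of the 84, 2 were called, both lower, beside 103 of all 20580 called lower. *Pi16*, a marker of adventitial fibroblasts, was at 5.68, 4.33 and 4.36 CPM in WT and 0.449, 0.476 and 0 CPM in Cbfb-cKO CD103-CD11b+ DCs (edgeR adjusted p = 0.0378). It passed the filter of 5 counts through the WT CD103-CD11b+ samples only, with at most 2 counts in each of the other 9 samples, so its call is no support for a difference. *Bst1*, a surface ectoenzyme of stromal and myeloid cells, was at 36.4, 11.3 and 15.7 CPM and 2.92, 1.19 and 2.04 CPM, a log2 fold change of -3.35 (SE 0.65) (edgeR adjusted p = 0.0326). In CD103+CD11b- DCs *Pi16* was at 0.342, 0.458 and 0 CPM in WT and 0.444, 0.244 and 0.391 CPM in Cbfb-cKO. *Bst1* was at 32.1, 28.1 and 13.7 CPM in WT and 3.77, 4.88 and 0.782 CPM in Cbfb-cKO. By edgeR none of the 84 was called in that subset, and 6 higher and 4 lower genes had an unadjusted p under 0.05, beside 800 higher and 1366 lower of all 20580.

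**Figure D5:**
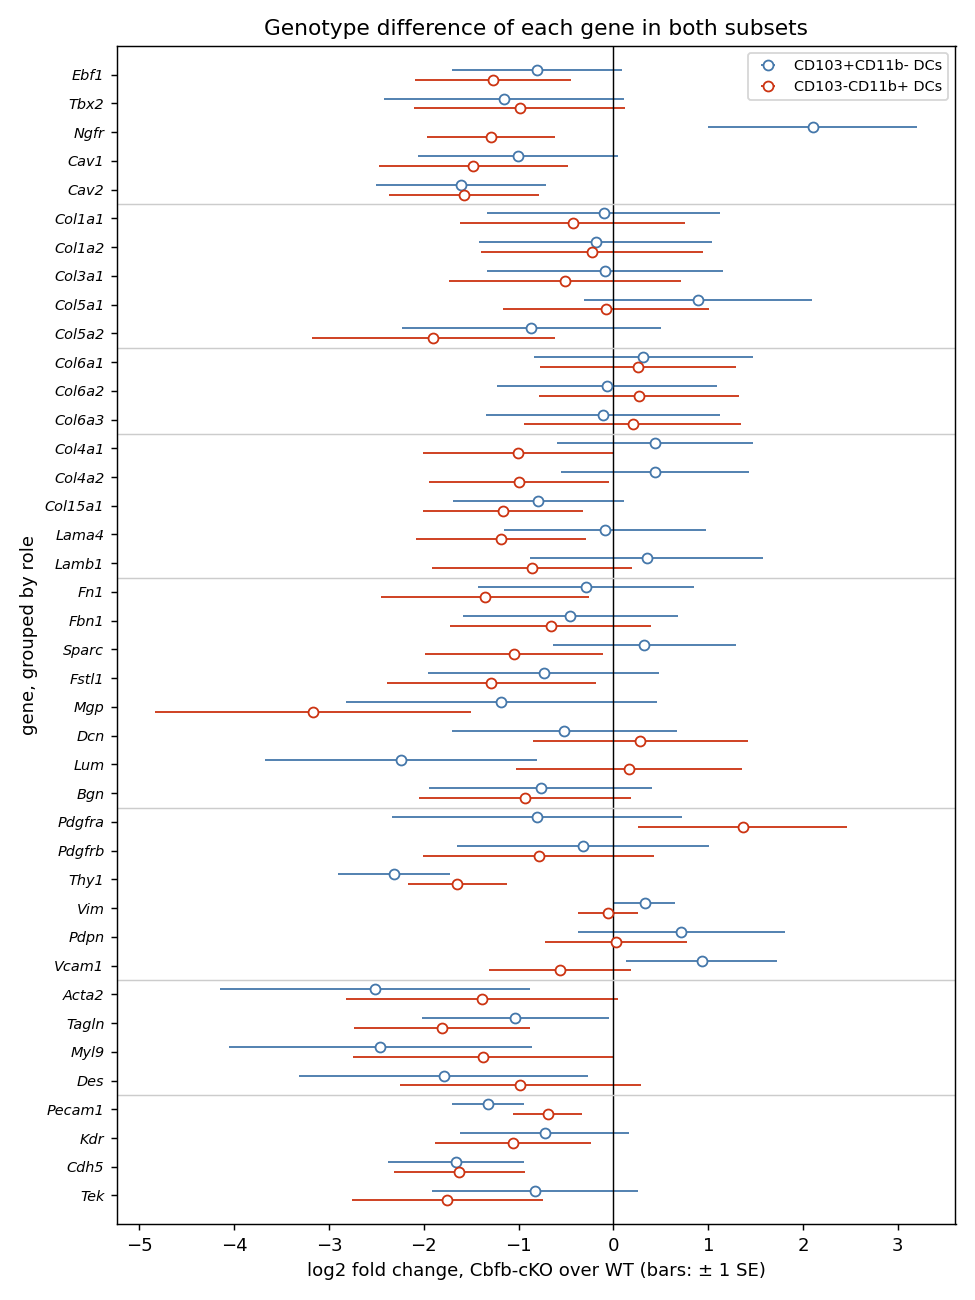
Log2 fold change of Cbfb-cKO over WT for each of the 40 genes in CD103+CD11b- (blue) and CD103-CD11b+ (red) DCs, with bars of 1 SE. No gene was called in either subset, and Thy1, Pecam1 and Cdh5 lie below 0 in both subsets, at -2.32, -1.32 and -1.66 in CD103+CD11b- DCs.

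The difference of the genotype effects between the subsets was fitted as an interaction over all 12 samples. It uses the CD103-CD11b+ samples for which the list was chosen, so its values are a description. None of the 40 genes was called by edgeR, beside 0.651% of all tested genes called in either direction, and DESeq2 called none, beside 2.46% of all genes. Only *Ngfr* had an unadjusted p under 0.05, beside 11.1% of all genes, with a difference of -3.39 (SE 1.3) that rests on the 2 counts in WT CD103+CD11b- DCs. The median over the 40 was -0.38, with 27 of the 40 below 0. Without the third Cbfb-cKO CD103-CD11b+ sample the median was 0.14 and 16 were below 0. Without the third WT CD103+CD11b- sample the median was -2.52, 36 were below 0 and 13 had an unadjusted p under 0.05, beside 13.8% of all genes. With the block within genotype 35 were below 0 and 4 had such a p, beside 14.6% of all genes. The median was 0.42 without the second Cbfb-cKO CD103+CD11b- sample.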

How the data were processed

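Libraries were made by a total RNA protocol for low cell numbers (RamDA-seq). The authors trimmed reads, mapped them with STAR (2.7) to mm10, removed reads of low mapping quality and duplicates, and deposited raw counts per Ensembl gene (GRCm38) from HTSeq, without strand. The summary lines were left out. Symbols and positions came from GENCODE M21, and promoters from RefSeq (GRCm38.p6).

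Genes that reached 5 counts in any sample entered 1 model of the 4 groups with edgeR 4.0.16 (TMM, quasi-likelihood F-test, Benjamini-Hochberg). A gene was called at an FDR below 0.05 with a change of more than 1.3-fold. The 40 genes and the other lists were chosen with earlier results of these data known. Values in every sample are given for the first 5 genes, for the gene of highest mean and of smallest p (genotype, CD103-CD11b+) in each other set, and for up to 6 called genes per comparison. From the other lists, up to 3 called genes per list and comparison are named. A called gene of these lists and a marker gene are not reported here. Same-numbered samples were taken as paired where deviations from the group mean correlated over 0.1 in all 3 pairs, which among the 4 pairs of groups compared held for the Cbfb-cKO subsets (0.112, 0.321 and 0.354). The same held for WT CD103-CD11b+ and Cbfb-cKO CD103+CD11b- samples (0.124, 0.2165 and 0.167), which came from mice of different genotype. The rule therefore cannot show that samples share a mouse. The labels do not say that a number marks 1 mouse. Alternatives were DESeq2 1.42.0, RLE normalization, other filters, replicate blocks, fits to 6 samples and leaving out each sample. The procedure was tested on simulated data.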

Additional observations from a re-analysis of the deposited data

How the results depend on the processing

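The count of listed genes called in the WT subset comparison, 15, was 34 with the replicate block within genotype, 16 with the shared replicate block, 22 with DESeq2, 21 without a filter and 11 in the fit to the 6 samples, and it ran from 2 to 31 when each sample was left out. Of all tested genes 16.1%, 14%, 14.6%, 7.65% and 8.31% were called higher under the 5 settings in the same order. The count in the Cbfb-cKO subset comparison, 9, was 15 without a filter, 14 with the replicate block, 22 with the replicate block within genotype, 18 with DESeq2 and 6 in the fit to the 6 samples, and it ran from 1 to 17 when each sample was left out. Of all tested genes 6.16%, 12%, 12.9%, 12% and 8.21% were called higher under these 5 settings. In the genotype comparisons the count of 0 became 2 in CD103+CD11b- and 1 in CD103-CD11b+ DCs with DESeq2, and stayed at 0 under every other alternative. The block changed no call in the genotype comparisons. Same-numbered WT samples of both subsets did not all deviate together (0.357, -0.085 and 0.352).

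Leaving out each sample moved the median over the 40 genes from 2.55 to 5.29 in the WT subset comparison, from 1.86 to 3.48 in the Cbfb-cKO subset comparison, from -1.31 to 1.87 for the genotypes in CD103+CD11b- DCs, from -1.67 to -0.47 for those in CD103-CD11b+ DCs and from -2.52 to 0.42 for the difference of genotype effects. The values 5.29, 1.87 and -2.52 were those without the third WT CD103+CD11b- sample. The mean sum in Cbfb-cKO CD103+CD11b- DCs, 1127 CPM, was 644 CPM without *Vim*. Of 931 values of single genes under the alternatives, 882 kept their call or moved by less than 1 SE, and no called gene changed sign. *Thy1* and *Pecam1* passed the threshold in the CD103+CD11b- genotype comparison with DESeq2 only. The cause of these changes was not tested.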

Other observations

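Of the lymphatic endothelial genes in the lists, 3 were high in 1 CD103-CD11b+ sample of each genotype. The genes of this paragraph were chosen after their values were seen. *Prox1*, the transcription factor of lymphatic endothelium, was at 0.392, 59.3 and 2.91 CPM in WT and 2.69, 19.3 and 0.510 CPM in Cbfb-cKO CD103-CD11b+ samples. *Lyve1*, a hyaluronan receptor of lymphatic vessels and some macrophages, was at 1.17, 104 and 1.45 CPM and 1.12, 41.2 and 0 CPM. *Mmrn1*, a multimerin of endothelium, was at 0.783, 164 and 0 CPM and 3.14, 77.1 and 0 CPM. In both genotypes the second sample was the highest for all 3 genes, and the CD103+CD11b- samples stayed at or below 3.52 CPM for each of them. *Flt4*, a VEGF receptor of lymphatic vessels, was high in other samples as well. It was between 6.64 and 12.8 CPM in WT and at 110.3, 115 and 63.4 CPM in Cbfb-cKO CD103+CD11b- samples, which did not overlap (edgeR adjusted p = 0.164), and at 82.2, 379 and 48.0 CPM and 64.9, 137 and 8.67 CPM in CD103-CD11b+ samples. *Ccl21a*, a chemokine of lymphatic vessels, stayed at or below 4.66 CPM in every sample. The blood vessel gene *Kdr*, in contrast, was high in the first sample of each genotype too.

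Of 15 smooth muscle and pericyte genes outside the 40, 13 were highest of the WT CD103+CD11b- samples in the third. In WT CD103-CD11b+ DCs 6 of the 15 were highest in the third and 9 in the second sample. One of the 6, chosen after its values were seen, was *Myh11*. *Myh11*, the smooth muscle myosin, was at 11.6, 11.9 and 198 CPM in WT CD103+CD11b- and 22.3, 297 and 540.4 CPM in WT CD103-CD11b+ samples, and at 11.3, 18.5 and 16.4 CPM and 9.65, 272 and 16.3 CPM in the Cbfb-cKO subsets, so that the third WT sample was the highest of its group in both subsets. What these samples share was not tested.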
